A study of Mus musculus with 6 samples.

Results

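Transcript levels are described here for the enzymes and helper proteins that copy, establish, oxidise and excise methylated cytosine in DNA. The set was chosen by gene name, with earlier results of these data known. It holds the maintenance methyltransferase Dnmt1 with its recruiting factor Uhrf1, the paralogue Uhrf2, and the de novo methyltransferases Dnmt3a and Dnmt3b. It also holds the dioxygenases Tet1, Tet2 and Tet3, and the glycosylase Tdg. All 9 genes were found among the 57010 Ensembl gene identifiers of the count table, and all 9 passed the filter on low counts that left 16093 genes for testing.

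In mammals, cytosine methylation sits mostly at CpG dinucleotides and is copied at each round of replication, when UHRF1 binds the half-methylated daughter DNA and brings DNMT1 to it. DNMT3A and DNMT3B place methyl groups on sites that carried none. The TET enzymes oxidise 5-methylcytosine stepwise to 5-hydroxymethylcytosine and beyond, using iron, oxygen and 2-oxoglutarate, and TDG cuts out the most oxidised forms so that base excision repair can restore plain cytosine. Fibroblasts that are turned into neurons have to change methylation patterns laid down in development, and TET and DNMT enzymes are often studied in that setting.

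The samples were mouse fibroblasts, labelled as ear cells by tissue and as dermal fibroblasts in the study's design text, cultured at 500000 cells per sample. Cells were kept for 3 days on a soft polyacrylamide gel of 1 kPa or on a stiffer gel of 20 kPa, and the controls were cells kept on glass for the same time. Polyacrylamide gels are inert, water-swollen networks whose stiffness is set by crosslinking, and glass is far stiffer than both. Each group has 2 libraries of polyadenylated RNA, 6 in all, and the labels name no strain, sex, age or added reprogramming factor. The study asked how matrix stiffness bears on the epigenetic state during neuronal reprogramming, and its title calls that dependence biphasic. DNA methylation itself was not analysed here, so every value below is a transcript level.

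Between 17669006 and 21350111 counts were obtained per library, at which the floor of 3 counts lies between 0.139 and 0.174 CPM, the counts scaled to a common library size. Libraries of 1 group correlated at 0.9917 to 0.9925 across genes. Glass stood apart from the gels on the first principal component (68.2% of the variance), and the gels from each other on the second (16.1%). One identifier without a symbol held 5.1% of all counts in glass replicate 2, against 0.947% to 2.9% elsewhere. The 12 fibroblast markers tested summed to 51300 to 56100 CPM in gel libraries and to 36900 and 39600 CPM on glass. Fn1 was the largest part of that sum, at means of 22100 CPM on 1 kPa, 22400 on 20 kPa and 17400 on glass. Vim, another of the 12, went the other way, at 2190 CPM on 1 kPa, 2720 on 20 kPa and 4190 on glass. Whether replicate libraries stem from separate animals or cultures is not labelled. The p-values set group differences against the spread between these libraries, and that spread may be technical.

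The 9 genes lie on 8 mouse chromosomes, at these GRCm38 positions. Dnmt1 (ENSMUSG00000004099.17) occupies bases 20907209 to 20959888 of chromosome 9 (minus strand), Uhrf1 (ENSMUSG00000001228.15) bases 56303321 to 56323486 of chromosome 17 (plus strand) and Uhrf2 (ENSMUSG00000024817.14) bases 30030513 to 30093722 of chromosome 19 (plus strand). Dnmt3a (ENSMUSG00000020661.16) occupies bases 3806007 to 3914443 of chromosome 12 and Dnmt3b (ENSMUSG00000027478.16) bases 153649450 to 153687730 of chromosome 2, each read from the plus strand. On chromosome 10 lie Tet1 (ENSMUSG00000047146.18), from 62804570 to 62908996 on the minus strand, and Tdg (ENSMUSG00000034674.19), from 82629828 to 82650799 on the plus strand. Tet2 (ENSMUSG00000040943.13) occupies bases 133463679 to 133545139 of chromosome 3 and Tet3 (ENSMUSG00000034832.16) bases 83362373 to 83459084 of chromosome 6, each read from the minus strand. Each value sums the reads of a whole gene, so the short and long forms of Dnmt3a and Tet1 were not told apart.

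The promoters of the 3 genes that were higher on both gels than on glass are shown first, with CpG dinucleotides, the sites that these enzymes act on, in capitals. They are shown because these 3 genes were called higher on both gels, while Uhrf1 and Tdg were called lower on both. Each is the 250 bases before a RefSeq transcription start of GRCm38.p6, on the strand of its gene.
Tet2, chr3:133544391-133544640, minus strand: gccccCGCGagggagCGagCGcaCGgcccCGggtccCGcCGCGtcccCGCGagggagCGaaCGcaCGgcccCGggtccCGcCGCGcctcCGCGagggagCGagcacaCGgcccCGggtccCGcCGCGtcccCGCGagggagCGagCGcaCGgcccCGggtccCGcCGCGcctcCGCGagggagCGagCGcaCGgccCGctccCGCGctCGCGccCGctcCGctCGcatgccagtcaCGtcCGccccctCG
Dnmt3a, chr12:3806730-3806979, plus strand: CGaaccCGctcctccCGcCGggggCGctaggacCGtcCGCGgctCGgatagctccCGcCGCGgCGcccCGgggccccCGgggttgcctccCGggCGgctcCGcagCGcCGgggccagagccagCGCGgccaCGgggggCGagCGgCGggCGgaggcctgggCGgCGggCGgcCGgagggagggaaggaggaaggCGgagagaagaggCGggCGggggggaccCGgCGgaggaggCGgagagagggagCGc
Uhrf2, chr19:30030263-30030512, plus strand: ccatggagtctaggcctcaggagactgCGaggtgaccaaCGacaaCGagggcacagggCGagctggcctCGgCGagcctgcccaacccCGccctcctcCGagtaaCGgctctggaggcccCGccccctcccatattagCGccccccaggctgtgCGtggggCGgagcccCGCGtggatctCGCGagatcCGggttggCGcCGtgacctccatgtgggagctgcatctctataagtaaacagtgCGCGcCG
The Tet2 window holds 51 CpG dinucleotides, the Dnmt3a window 38 and the Uhrf2 window 23. Over all 32841 such windows the median was 6, with quartiles of 2 and 16. All 9 genes matched a RefSeq start, with 14 windows among them, and their median was 20. The 3 Dnmt1 windows hold 26, 7 and 2 CpG dinucleotides, of which 2 is the only count of the set below the median of all windows, and the Uhrf1 windows hold 30 and 10. Dnmt3b had 21, Tdg 19, Tet3 17 and Tet1 15, and the other Dnmt3a windows hold 40 and 15. CpG counts above the median of all windows were therefore found upstream of genes that were higher, lower and not called on the gels.

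Dnmt1 and Uhrf1 share a short motif in their upstream windows, and the 30 bases around it are shown because these are the genes of the set called lower on 20 kPa than on 1 kPa and on glass. Both 20 kPa libraries were also below the other 4 libraries for Tdg and Tet3, and neither gene holds the motif in its window. The capitals mark the 8 letters TTTCGCGC of an E2F element, a site bound by factors that switch on S phase genes, or their reverse complement.
Dnmt1, chr9:20952824-20952853, minus strand: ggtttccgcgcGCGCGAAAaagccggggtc
Uhrf1, chr17:56304117-56304146, plus strand: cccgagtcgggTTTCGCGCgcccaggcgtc
In Uhrf1 the match begins 185 bases before the start site. In Dnmt1 it is on the reverse complement, 219 bases before 1 of 3 RefSeq starts, in a stretch that is exonic in transcripts with an earlier start. TTTCGCGC occurred on either strand in 84 of the 32841 windows (0.256%), and in none of the other windows of the 9 genes. Of the related elements searched on both strands, TTTGGCGC (0.417% of windows) and TTTCCCGC (0.895%) were found in no window of the 9 genes, so no E2F elements overlapped. The NF-Y element CCAAT, searched the same way, occurred in 33.9% of all windows. In the set it occurred upstream of Dnmt1, Uhrf1, Tet3 and Tdg and of no other gene. A match describes these letters and is not evidence of binding.

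The set moved in both directions on the gels. Of the 9 genes, 4 were higher and 2 lower on 1 kPa than on glass, where 45.0% of all tested genes were called (23.0% higher and 22.0% lower). On 20 kPa against glass, 4 were higher and 3 lower, where 41.8% of all genes were called (22.3% higher and 19.6% lower). Between the gels, none was higher and 3 were lower on 20 kPa than on 1 kPa, where 18.9% of all genes were called (8.94% higher and 9.92% lower). Called here means an adjusted p below 0.05 in edgeR's quasi-likelihood test with Benjamini-Hochberg adjustment over the 16093 genes, which gives every adjusted p below. The median log2 fold change of the 9 genes was 0.32 on 1 kPa and 0.26 on 20 kPa against glass, and -0.06 between the gels, beside medians over all tested genes of 0.00 on 1 kPa and 0.02 on 20 kPa against glass, and 0.00 between the gels. Among the 3 substrates as a whole, 8 of 9 differed, all but Dnmt3b, and so did 51.2% of all tested genes. Both gels were compared with the same glass libraries, so their values are given side by side and not as separate evidence. In bulk RNA, fewer cells of a type and less RNA per cell cannot be told apart.

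**Figure D1:**
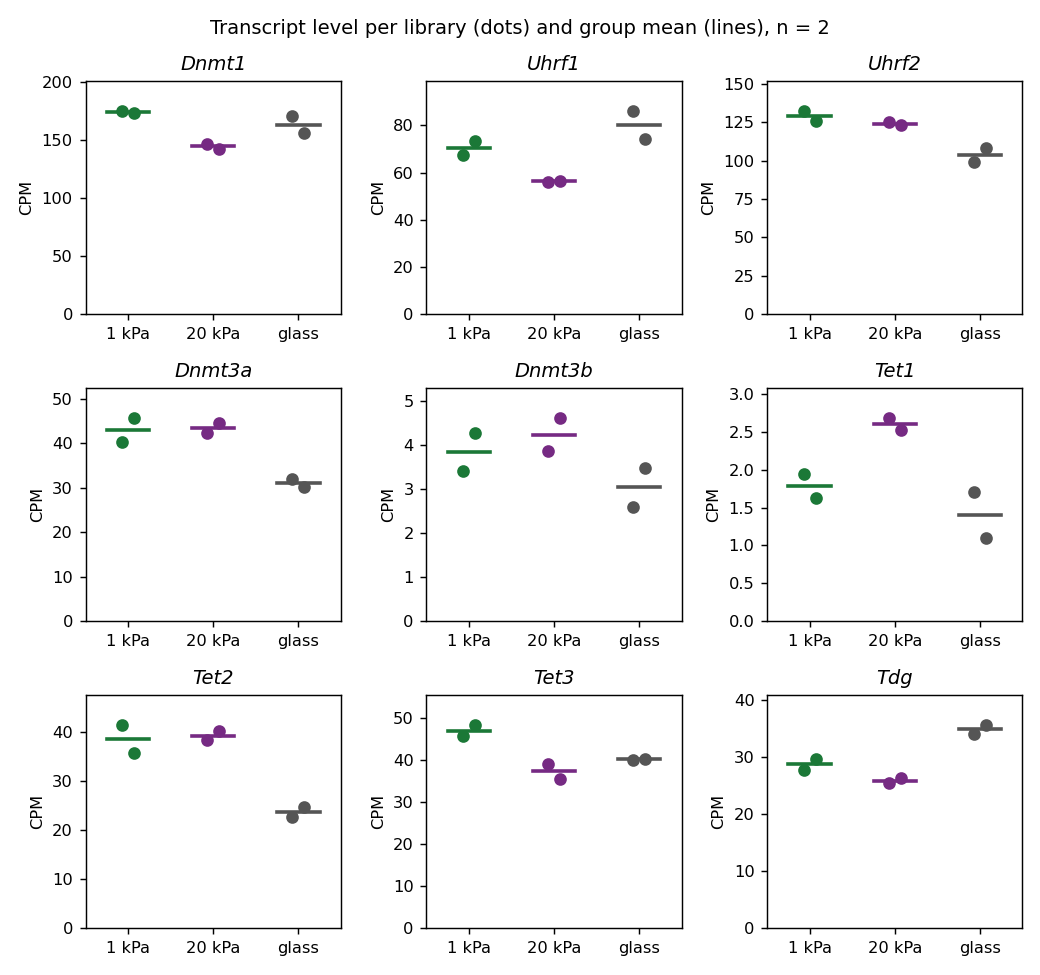
CPM of each of the 9 genes (vertical axes, linear from 0) in every library on the 1 kPa gel, the 20 kPa gel and glass, with dots for libraries and lines for the mean of 2. Tet2, Dnmt3a and Uhrf2 are lower in both glass libraries than in all 4 gel libraries, Tdg is higher in both glass libraries, and Dnmt1 and Uhrf1 are lowest on 20 kPa.

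Dnmt1, which copies methylation onto newly made DNA, was the most abundant of the methyltransferases. It stood at 175 and 174 CPM on 1 kPa, at 147 and 143 CPM on 20 kPa, and at 171 and 156 CPM on glass. Both 20 kPa libraries were below the other 4 libraries, and both 1 kPa libraries were above both glass libraries. Dnmt1 fell by 16.9% on 20 kPa against 1 kPa (log2 fold change -0.27, SE 0.06, adjusted p = 0.0013) and by 11.5% on 20 kPa against glass (log2 fold change -0.18, SE 0.06, adjusted p = 0.018). On 1 kPa against glass its log2 fold change was 0.09 (SE 0.06, adjusted p = 0.21). The fall against glass was not called without glass replicate 1 (adjusted p = 0.14), without 20 kPa replicate 1 (0.056) or replicate 2 (0.15), or when total counts replaced the TMM scaling (0.096), and the 1 kPa value was called without glass replicate 1 (0.025).

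Uhrf1, which reads half-methylated DNA and recruits DNMT1, was lower on both gels than on glass. It stood at 67.4 and 73.3 CPM on 1 kPa, at 55.9 and 56.6 CPM on 20 kPa, and at 85.9 and 74.1 CPM on glass. The 3 groups did not overlap, although 1 kPa replicate 2 came within 1 CPM of glass replicate 2. On 20 kPa Uhrf1 fell by 29.9% against glass (log2 fold change -0.51, SE 0.07, adjusted p = 1.1e-06) and by 20.1% against 1 kPa (log2 fold change -0.32, SE 0.07, adjusted p = 0.0018). On 1 kPa it fell by 12.3% against glass (log2 fold change -0.19, SE 0.07, adjusted p = 0.034). That last call was lost without glass replicate 1 (adjusted p = 0.44), without 1 kPa replicate 1 (0.31), without either 20 kPa library (0.055 each), with only the 4 libraries compared (0.055) and with DESeq2 (0.097), and the call between the gels was lost without 1 kPa replicate 2 (0.079).

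Dnmt1 and Uhrf1 were thus the 2 genes of the set called lower on 20 kPa relative to 1 kPa and also relative to glass. Over all tested genes 2.83% were called lower and 4.27% higher on 20 kPa than on both others, and no gene of the set was called higher in that way. Both comparisons share the 20 kPa libraries. The pair fell to 1 gene under total-count scaling and without glass replicate 1, 1 kPa replicate 2, 20 kPa replicate 1 or 20 kPa replicate 2.

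Uhrf2, a paralogue of Uhrf1 that binds 5-hydroxymethylcytosine in biochemical assays and does not replace Uhrf1 in maintenance in mouse embryonic stem cells, moved the other way. It stood at 132 and 126 CPM on 1 kPa, at 125 and 123 CPM on 20 kPa, and at 99.4 and 108 CPM on glass. All 4 gel libraries were above both glass libraries. Uhrf2 rose by 25.1% on 1 kPa (log2 fold change 0.32, SE 0.06, adjusted p = 7.0e-05) and by 19.7% on 20 kPa (log2 fold change 0.26, SE 0.06, adjusted p = 9.7e-04) against glass. The gels differed by a log2 fold change of -0.06 (SE 0.06, adjusted p = 0.53).

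Dnmt3a, a de novo methyltransferase that is widely expressed in somatic cells, was higher on both gels. It stood at 40.3 and 45.6 CPM on 1 kPa, at 42.3 and 44.6 CPM on 20 kPa, and at 31.9 and 30.1 CPM on glass. The gel libraries overlapped each other and lay above both glass libraries. Dnmt3a rose 1.38-fold on 1 kPa (log2 fold change 0.47, SE 0.08, adjusted p = 3.2e-05) and 1.40-fold on 20 kPa (log2 fold change 0.48, SE 0.08, adjusted p = 1.9e-05) against glass, and the gels differed by a log2 fold change of 0.02 (SE 0.08, adjusted p = 0.91). Its exons overlap an antisense gene, Dnmt3aos, over 0.799% of their length, so reads there could come from either.

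Dnmt3b, the de novo enzyme best known from early embryos, was low and was called in no comparison. It had 70 and 76 counts on 1 kPa (3.41 and 4.26 CPM), 79 and 95 counts on 20 kPa (3.85 and 4.60 CPM), and 56 and 60 counts on glass (2.59 and 3.48 CPM). Its 20 kPa libraries were above both glass libraries, while 1 kPa replicate 1 was below glass replicate 2. The log2 fold change was 0.35 on 1 kPa (SE 0.23, adjusted p = 0.23) and 0.49 on 20 kPa (SE 0.22, adjusted p = 0.078) against glass, and 0.15 between the gels (SE 0.21, adjusted p = 0.7). Without glass replicate 2 the 20 kPa value passed the threshold (adjusted p = 0.041). The fold change on 20 kPa was about as large as that of Dnmt3a, with a wider error at this depth.

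Tet2, a dioxygenase with no CXXC domain of its own, had the smallest adjusted p values of the set against glass. It stood at 41.5 and 35.8 CPM on 1 kPa, at 38.4 and 40.3 CPM on 20 kPa, and at 22.7 and 24.8 CPM on glass. Every gel library was above both glass libraries. Tet2 rose 1.63-fold on 1 kPa (log2 fold change 0.71, SE 0.09, adjusted p = 1.3e-07) and 1.66-fold on 20 kPa (log2 fold change 0.73, SE 0.09, adjusted p = 7.1e-08) against glass, and the gels differed by a log2 fold change of 0.02 (SE 0.09, adjusted p = 0.89). Its exons overlap an antisense gene over 0.255% of their length.

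Tet1, which carries a CXXC domain and is abundant in embryonic stem cells, was the lowest of the set. It had 40 and 29 counts on 1 kPa (1.95 and 1.63 CPM), 55 and 52 counts on 20 kPa (2.68 and 2.52 CPM), and 37 and 19 counts on glass (1.71 and 1.10 CPM). Both 20 kPa libraries were above the other 4 libraries, while the 1 kPa and glass libraries overlapped. Tet1 rose 1.81-fold on 20 kPa against glass (log2 fold change 0.86, SE 0.30, adjusted p = 0.022), and this call was lost without glass replicate 2 (adjusted p = 0.18), without 20 kPa replicate 1 (0.11) or replicate 2 (0.07), and with DESeq2 (0.097). The log2 fold change was 0.33 on 1 kPa against glass (SE 0.32, adjusted p = 0.44) and 0.53 on 20 kPa against 1 kPa (SE 0.29, adjusted p = 0.22).

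Tet3, the TET gene with a known role in the fertilised egg and in neurons, was highest on the soft gel. It stood at 45.8 and 48.4 CPM on 1 kPa, at 39.1 and 35.6 CPM on 20 kPa, and at 40.1 and 40.4 CPM on glass. Both 1 kPa libraries were above the other 4 libraries, and both 20 kPa libraries were the lowest. Tet3 rose by 16.9% on 1 kPa against glass (log2 fold change 0.23, SE 0.08, adjusted p = 0.02) and fell by 20.6% on 20 kPa against 1 kPa (log2 fold change -0.33, SE 0.08, adjusted p = 0.0024). On 20 kPa against glass its log2 fold change was -0.11 (SE 0.08, adjusted p = 0.3). The rise was not called without glass replicate 1 (adjusted p = 0.052), without 1 kPa replicate 2 (0.17) or with DESeq2 (0.069), and the fall was not called without 1 kPa replicate 2 (0.063) or 20 kPa replicate 2 (0.078).

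Tdg, the glycosylase that removes 5-formylcytosine and 5-carboxylcytosine, was lower on both gels. It stood at 27.8 and 29.6 CPM on 1 kPa, at 25.4 and 26.3 CPM on 20 kPa, and at 34.1 and 35.6 CPM on glass. The 3 groups did not overlap. Tdg fell by 17.5% on 1 kPa (log2 fold change -0.28, SE 0.08, adjusted p = 0.008) and by 25.6% on 20 kPa (log2 fold change -0.43, SE 0.08, adjusted p = 1.3e-04) against glass, and the gels differed by a log2 fold change of -0.15 (SE 0.09, adjusted p = 0.25). The 1 kPa call was lost without 1 kPa replicate 1 (adjusted p = 0.12). Exons of Glt8d2 on the other strand overlap 6.83% of the exonic length of Tdg, and whether strand was used in counting is not given, so reads there are uncertain.

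**Figure D2:**
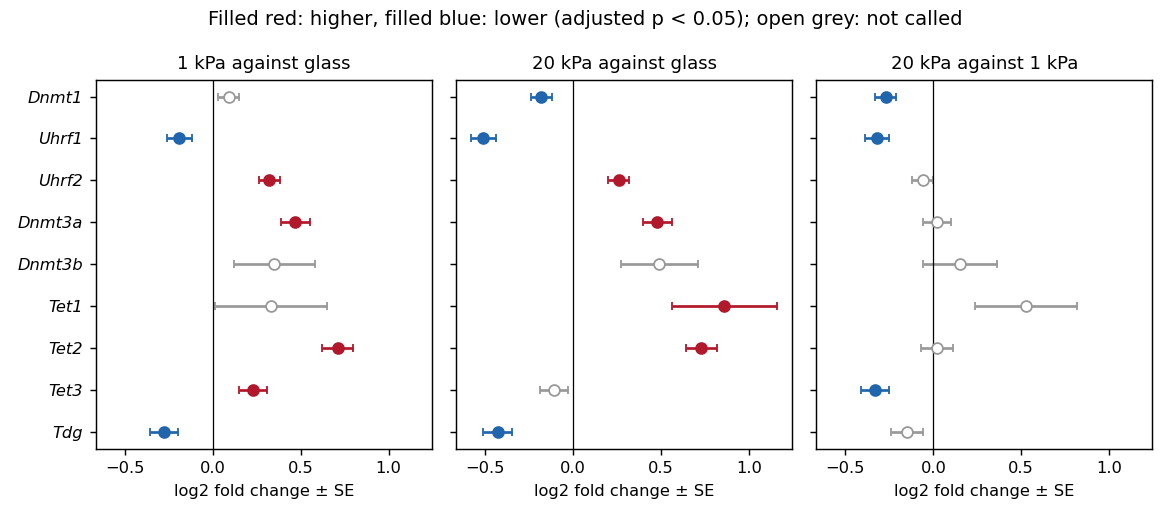
Log2 fold change with its SE (horizontal axes) of the 9 genes in the 3 comparisons from 1 edgeR fit, with filled symbols for genes past an adjusted p of 0.05 and open symbols for the rest. Dnmt3a, Tet2 and Uhrf2 stand right of 0 on both gels with no difference called between the gels, while Dnmt1, Uhrf1 and Tet3 stand left of 0 in 20 kPa against 1 kPa.

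Set against all genes, these changes were of middling size. Of the 16093 genes ranked by the size of their log2 fold change, Tet1 ranked 2704 on 20 kPa against glass, and Tet2 ranked 3583 on 1 kPa and 3299 on 20 kPa against glass. Uhrf1 ranked 4712 and Dnmt3a 4957 on 20 kPa against glass. No library of one group fell within the range of the other for 7 of the 9 genes on 1 kPa against glass, for all 9 on 20 kPa against glass and for 6 between the gels. Over all tested genes that share was 71.0% on 1 kPa against glass, 67.5% on 20 kPa against glass and 60.1% between the gels.

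Levels can be compared between genes only per length, as RPKM, which is CPM divided by the exon length in kilobases. Dnmt1 had the highest mean, with 23.7 ± 0.052 RPKM on 1 kPa, 19.7 ± 0.46 on 20 kPa and 22.2 ± 1.4 on glass (SD, n = 2 each). Uhrf1 averaged 16.5 ± 0.97 RPKM on 1 kPa, 13.2 ± 0.12 on 20 kPa and 18.8 ± 2.0 on glass, and Uhrf2 averaged 15.1 ± 0.49 RPKM on 1 kPa, 14.4 ± 0.10 on 20 kPa and 12.1 ± 0.70 on glass. Tdg followed with 4.81 to 6.48 RPKM as group means, and then Tet3, Dnmt3a and Tet2 between 1.41 and 2.82 RPKM. Dnmt3b averaged 0.751 RPKM on 1 kPa, 0.828 on 20 kPa and 0.594 on glass, and Tet1 averaged 0.116 RPKM on 1 kPa, 0.168 on 20 kPa and 0.091 on glass. Tet3, Dnmt3a and Tet2 had overlapping ranges over all 6 libraries, and the order of their means changed with the substrate. The scale used the length of all annotated exons, and with the longest transcript instead Uhrf2 stood above Dnmt1, at 36.6 against 29.7 RPKM on 1 kPa, 35 against 24.7 on 20 kPa and 29.3 against 27.9 on glass. The order at the top therefore depends on the length taken, while the place of Tet1 at the bottom did not.

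Within the TET family the shares of Tet2 and Tet3 differed between gels and glass. Tet2 made up 46.2% and 41.4% of the summed RPKM of Tet1, Tet2 and Tet3 on 1 kPa, 47.5% and 51% on 20 kPa, and 34.9% and 37.1% on glass. Tet3 made up 51.5% and 56.6% on 1 kPa, 48.9% and 45.5% on 20 kPa, and 62.2% and 61.1% on glass. By this length Tet3 was the larger in every 1 kPa and glass library and in 20 kPa replicate 1, and Tet2 the larger in 20 kPa replicate 2. Tet1 held 1.80% to 3.62% in all libraries. The 3 genes together summed to 5.33 and 5.12 RPKM on 1 kPa, to 4.79 and 4.69 on 20 kPa, and to 3.86 and 3.96 on glass. The summed TET level was therefore higher in every gel library than in both glass libraries, with no test made of it. These shares are descriptions of each library and depend on the length taken. With the longest transcript, Tet2 and Tet3 averaged 4.21 and 4.32 RPKM on 1 kPa, 4.29 and 3.43 on 20 kPa, and 2.59 and 3.69 on glass.

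Among the methyltransferases, Dnmt1 held most of the summed RPKM everywhere. Its share was 88.5% and 86.9% on 1 kPa, 85.8% and 84.4% on 20 kPa, and 90.5% and 89.5% on glass. Dnmt3a held 9.04% and 10.1% on 1 kPa, 10.9% and 11.7% on 20 kPa, and 7.48% and 7.63% on glass. The de novo enzymes thus took a larger share in all gel libraries, with the largest on 20 kPa, where Dnmt1 was lowest. The 3 genes together summed to 26.8 and 27.2 RPKM on 1 kPa, 23.3 and 22.9 on 20 kPa, and 25.6 and 23.7 on glass. Uhrf1 held 50.7% and 53.9% of the summed RPKM of Uhrf1 and Uhrf2 on 1 kPa, 47.5% and 48.1% on 20 kPa, and 63.6% and 58.1% on glass. The direction of this last shift does not depend on the length taken, but the share itself does.

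**Figure D3:**
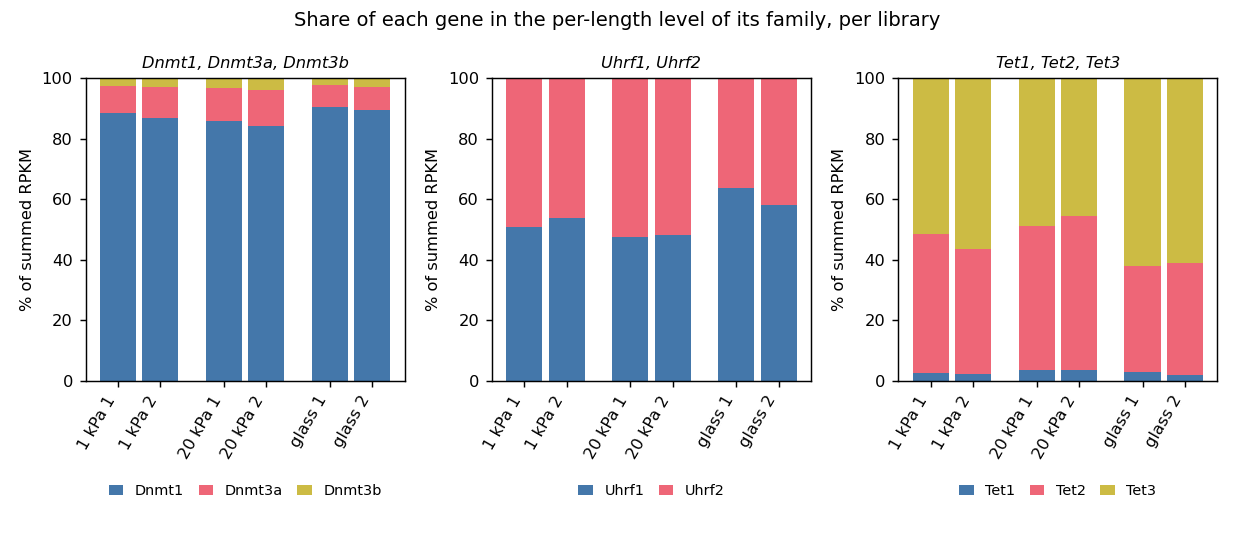
Share of each gene (vertical axes, % of the summed RPKM of its family) in every library, for the methyltransferases, the UHRF pair and the TET genes. Tet2 takes 34.9% and 37.1% on glass and at least 41.4% in every gel library, and Uhrf1 takes at least 58.1% on glass and at most 53.9% on the gels.

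Dnmt1 and Uhrf1 are most expressed when DNA is copied, so replication and mitotic genes are given beside them. Counts called in these and all later lists stand beside the shares of all tested genes. Against glass those shares were 23.0% higher and 22.0% lower on 1 kPa, and 22.3% higher and 19.6% lower on 20 kPa. Between the gels 8.94% were higher and 9.92% lower on 20 kPa. The 30 replication genes tested included 13 that were lower and none higher on 1 kPa than on glass (median log2 fold change -0.19). On 20 kPa against glass 18 were lower and none higher (median -0.37), and 2 were lower on 20 kPa than on 1 kPa. Those 2 were Mcm2 (-0.24, adjusted p = 0.012) and Mcm3 (-0.28, adjusted p = 0.0052), and both calls were lost without 1 kPa replicate 2 (adjusted p = 0.17 for Mcm2 and 0.13 for Mcm3) or 20 kPa replicate 1 (0.084 for Mcm2 and 0.091 for Mcm3), and that of Mcm2 also without 20 kPa replicate 2 (0.083). The helicase subunit Mcm5 averaged 61.1 CPM on 1 kPa, 59.7 on 20 kPa and 81.2 on glass, and fell by 0.41 on 1 kPa (adjusted p = 6.5e-06) and by 0.45 on 20 kPa (adjusted p = 1.9e-06) on the log2 scale, each against glass. Rrm1, the large subunit of ribonucleotide reductase, averaged 111 CPM on 1 kPa, 104 on 20 kPa and 176 on glass. All 25 mitotic genes were lower on each gel than on glass, with medians of -0.80 on 1 kPa and -1.02 on 20 kPa, and 13 of 25 were lower on 20 kPa than on 1 kPa.

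Summed over their members, the replication genes stood at 84.7% and 84.2% of the glass mean on 1 kPa, at 77.9% and 77.2% on 20 kPa, and at 101% and 99.1% on glass. The mitotic genes stood at 57.9% and 60.2% on 1 kPa, at 51.3% and 49.6% on 20 kPa, and at 101% and 99.4% on glass. On the same scale Uhrf1 stood at 84.3% and 91.6% on 1 kPa, at 69.8% and 70.7% on 20 kPa, and at 107% and 92.6% on glass. Uhrf1 thus lay near the summed replication genes on 1 kPa and below that sum on 20 kPa. Single genes of the list were spread widely around the sum. Gins2 averaged 14.3 CPM on 20 kPa and 25.6 on glass, while Ccne1 averaged 23 on 20 kPa and 21 on glass. Dnmt1 stood at 107% and 106% on 1 kPa, 90.1% and 87.2% on 20 kPa, and 104% and 95.5% on glass. It lay above the summed replication genes, though not above each of them, in all gel libraries. Per 100 CPM of replication genes there were 14.2 and 14.3 CPM of Dnmt1 on 1 kPa, 13 and 12.7 on 20 kPa, and 11.7 and 10.9 on glass. Tdg stayed within 2.25 to 2.47 CPM per 100 CPM of replication genes in all 6 libraries, so its groups overlapped on that scale. Per 100 CPM of mitotic genes Tdg stood at 2.29 and 2.34 CPM on 1 kPa, 2.36 and 2.52 on 20 kPa, and 1.61 and 1.7 on glass, with both glass libraries below all gel libraries. Uhrf1 stood at 5.48 and 6 CPM per 100 CPM of replication genes on 1 kPa, 4.94 and 5.04 on 20 kPa, and 5.86 and 5.15 on glass, where the 1 kPa and glass libraries overlapped and both 20 kPa libraries were lowest. For Tdg the picture thus depends on which genes it is set against. The part of the cell cycle in the changes of Dnmt1, Uhrf1 and Tdg was not tested.

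**Figure D4:**
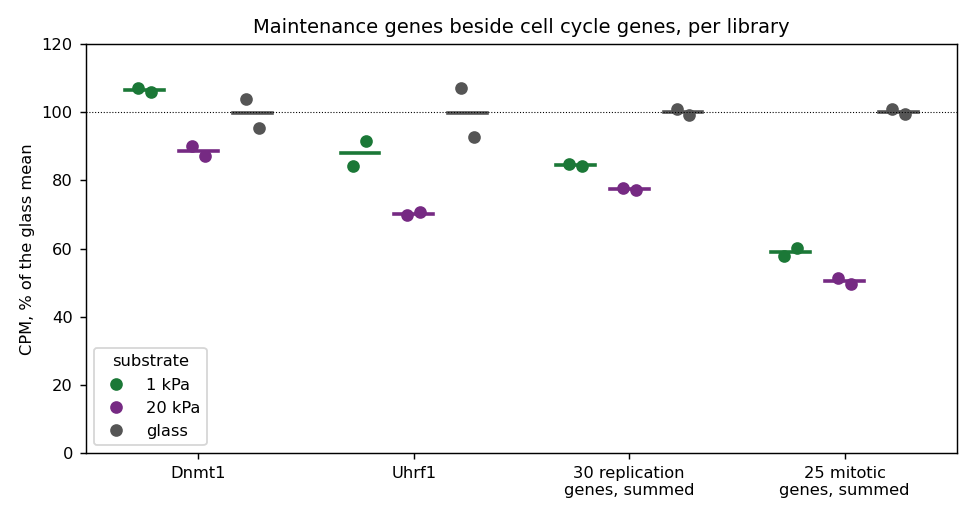
CPM as a percentage of the glass mean (vertical axis, linear from 0) of Dnmt1, Uhrf1 and the summed replication and mitotic genes in every library, with lines for group means of 2 libraries. On the gels the mitotic sum lies at 49.6% to 60.2% and the replication sum at 77.2% to 84.7%, while Dnmt1 lies at 87.2% to 107%.

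The 12 tested partners of maintenance and de novo methylation included 2 that were higher and 5 lower on 1 kPa, and none higher and 4 lower on 20 kPa, than on glass. Lig1, the ligase that joins newly copied strands, averaged 43.2 CPM on 1 kPa, 38.9 on 20 kPa and 59.3 on glass, and fell by 0.46 on 1 kPa (adjusted p = 6.8e-06) and 0.61 on 20 kPa (adjusted p = 6.1e-08) on the log2 scale, each against glass. Cdca7l, a relative of the CDCA7 activator of the remodeller HELLS, averaged 9.74 CPM on 1 kPa, 8.77 on 20 kPa and 16.5 on glass, and fell by 0.77 on 1 kPa (adjusted p = 7.2e-06) and 0.92 on 20 kPa (adjusted p = 4.7e-07). Lig1 is also one of the replication genes. Dnmt3l, the catalytically inactive cofactor of the de novo enzymes in germ cells, was near 4.20 CPM on 1 kPa, 2.65 on 20 kPa and 1.69 on glass, and rose by 1.36 on 1 kPa against glass (adjusted p = 1.8e-04). Trdmt1, formerly Dnmt2 and an RNA methyltransferase, was the one partner called between the gels, where it rose by 0.70 on 20 kPa (adjusted p = 0.0053), a call lost without 1 kPa replicate 2 (0.17) or 20 kPa replicate 1 (0.10). Trdmt1 averaged 4.61 CPM on 1 kPa, 7.53 on 20 kPa and 7.53 on glass, so the group that stood apart was 1 kPa. It fell by 0.70 on 1 kPa against glass (adjusted p = 0.0019), with a log2 fold change of -0.47 without 1 kPa replicate 2. The median log2 fold change of these partners was -0.10 on 1 kPa and -0.05 on 20 kPa against glass.

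The 13 tested CXXC proteins and TET partners included 9 that were higher and 2 lower on 1 kPa, and 5 higher and 3 lower on 20 kPa, than on glass, with medians of 0.26 on 1 kPa and 0.06 on 20 kPa. Gadd45a, which has been linked to active demethylation in frog and mammalian cells, averaged 42.2 CPM on 1 kPa, 51.5 on 20 kPa and 24.0 on glass, and rose by 0.81 on 1 kPa (adjusted p = 4.8e-09) and 1.09 on 20 kPa (adjusted p = 5.8e-12) on the log2 scale. Its relative Gadd45g fell by 0.40 on 1 kPa (adjusted p = 6.9e-06) and 0.35 on 20 kPa (adjusted p = 5.8e-05), so members of this family did not move together. Ogt, the O-GlcNAc transferase that binds TET2 and TET3, averaged 320 CPM on 1 kPa, 281 on 20 kPa and 252 on glass, and rose by 0.35 on 1 kPa against glass (adjusted p = 8.3e-06). Cxxc5, a CXXC protein that binds TET2, rose by 0.37 on 20 kPa against glass (adjusted p = 2.3e-05). Cxxc4, which binds TET2 as well, was too low to test, with at most 11 counts in a library.

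A list of methyl-CpG readers, with the Mbd genes included by family and not by shown binding, had medians of 0.08 on 1 kPa and 0.11 on 20 kPa against glass. Of 10 tested, 3 were higher and 1 lower on 1 kPa, and 3 higher and 2 lower on 20 kPa, than on glass. These counts were near the shares of all tested genes called, 45.0% on 1 kPa and 41.8% on 20 kPa. Zbtb38, a zinc finger protein that binds methylated CpG, averaged 72.2 CPM on 1 kPa, 69.2 on 20 kPa and 87.2 on glass, and fell by 0.27 on 1 kPa (adjusted p = 9.3e-04) and 0.33 on 20 kPa (adjusted p = 8.9e-05) on the log2 scale. Mbd6 rose by 0.31 (adjusted p = 3.1e-04) and Zbtb4 by 0.25 (adjusted p = 0.0013) on 1 kPa against glass.

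In base excision repair, which completes the removal begun by TDG, 1 of 13 tested genes was higher and 2 were lower on each gel than on glass, with medians of 0.02 on 1 kPa and -0.02 on 20 kPa, and none was called between the gels. Those on 1 kPa were Xrcc1 (0.23, adjusted p = 0.040), Lig3 (-0.21, adjusted p = 0.037) and Parp1 (-0.19, adjusted p = 0.026). Those on 20 kPa were Polb (0.28, adjusted p = 0.038), Neil3 (-0.45, adjusted p = 0.025) and Parp1 (-0.19, adjusted p = 0.025). Without glass replicate 1 the calls of Lig3 (adjusted p = 0.31), Polb (0.52) and Parp1 (0.15 on each gel) were lost, and without glass replicate 2 that of Neil3 (0.29). Other single libraries also ended calls: 1 kPa replicate 1 for Lig3 (0.21) and Parp1 (0.069), 1 kPa replicate 2 for Lig3 (0.09) and Parp1 (0.19), 20 kPa replicate 1 for Parp1 (0.26), and 20 kPa replicate 2 for Polb (0.39) and Neil3 (0.26). The call of Xrcc1, the repair scaffold, was lost without glass replicate 2 (adjusted p = 0.50), without 1 kPa replicate 1 (0.18) or replicate 2 (0.091), and without 20 kPa replicate 1 (0.054) or replicate 2 (0.055). No call in this list thus held in every fit with 1 library left out. With DESeq2 as the test every call in this list was lost as well. Its adjusted p was 0.12 for Xrcc1 and 0.11 for Lig3 on 1 kPa, and 0.16 for Polb and 0.086 for Neil3 on 20 kPa. For Parp1 it was 0.071 on 1 kPa and 0.054 on 20 kPa.

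Of 14 tested genes of the methionine and S-adenosylmethionine cycle, 4 were higher and 4 lower on 1 kPa, and 3 higher and 6 lower on 20 kPa, than on glass. Ahcy, which clears the methyltransferase inhibitor S-adenosylhomocysteine, averaged 77.6 CPM on 1 kPa, 86.1 on 20 kPa and 123 on glass, and fell by 0.67 on 1 kPa (adjusted p = 1.9e-10) and 0.52 on 20 kPa (adjusted p = 2.8e-08) on the log2 scale. Adk, which removes the adenosine that this reaction makes, fell by 1.02 on 1 kPa (adjusted p = 4.8e-14) and 0.61 on 20 kPa (adjusted p = 2.4e-09). Nnmt, which spends methyl groups on nicotinamide, averaged 51.6 CPM on 1 kPa, 41.7 on 20 kPa and 21.2 on glass, and rose by 1.29 on 1 kPa (adjusted p = 2.1e-13) and 0.98 on 20 kPa (adjusted p = 1.3e-10). The list medians were -0.04 on 1 kPa and -0.11 on 20 kPa against glass, so the list as a whole lay near the median of all genes.

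Among 17 genes that handle 2-oxoglutarate, succinate or fumarate, or take up ascorbate, 1 was higher and 10 lower on 1 kPa, and 1 higher and 8 lower on 20 kPa, than on glass, with medians of -0.21 on 1 kPa and -0.15 on 20 kPa. Idh1, which makes 2-oxoglutarate in the cytosol, averaged 82.6 CPM on 1 kPa, 99.2 on 20 kPa and 163 on glass, and fell by 0.98 on 1 kPa (adjusted p = 3.6e-13) and 0.72 on 20 kPa (adjusted p = 3.0e-10) on the log2 scale. The gene that was higher was Slc23a2, a transporter of ascorbate, a vitamin that keeps TET iron reduced, with 98.1 CPM on 1 kPa, 64.7 on 20 kPa and 47.8 on glass. It rose by 1.04 on 1 kPa (adjusted p = 5.3e-14) and 0.44 on 20 kPa (adjusted p = 3.6e-06) against glass and fell by 0.60 on 20 kPa against 1 kPa (adjusted p = 2.1e-08). Metabolite levels were not measured in these libraries.

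**Figure D5:**
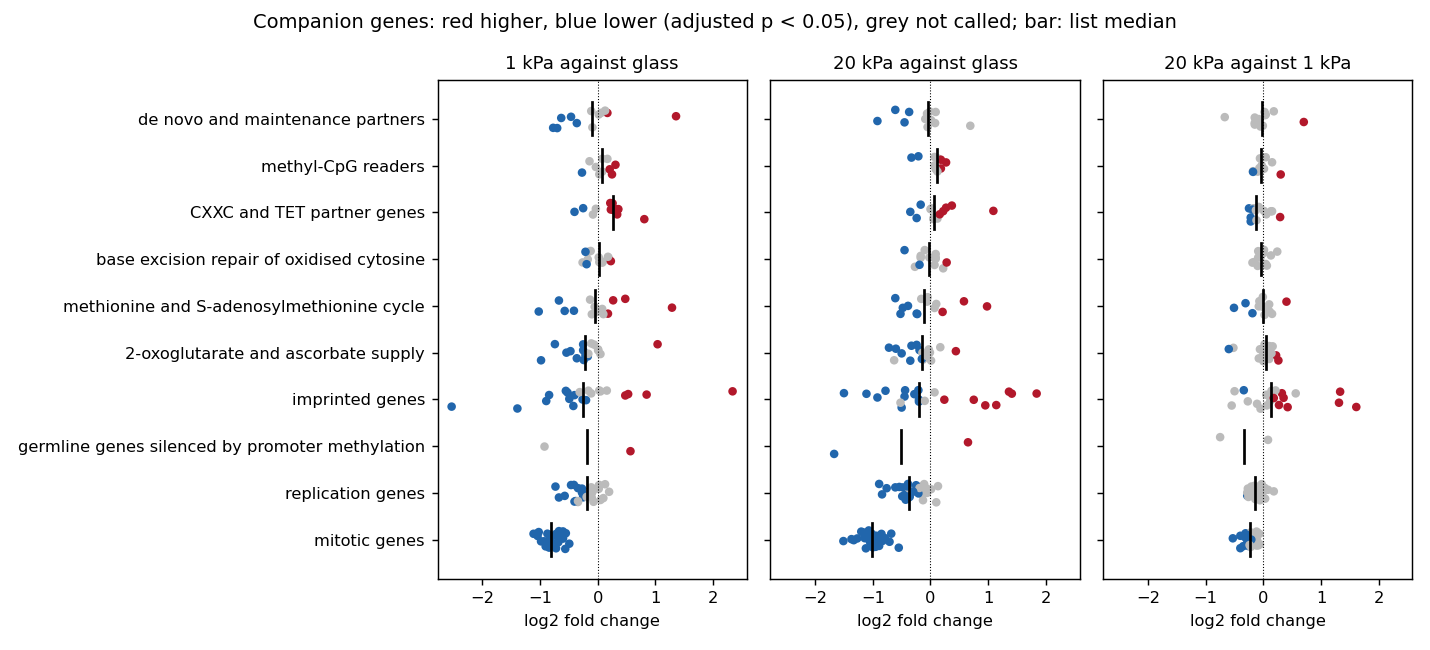
Log2 fold change (horizontal axes) of every tested gene in 10 lists of partners, readers, repair, cofactor supply, methylation-controlled and cell cycle genes, in 3 comparisons, with coloured dots for calls and bars for list medians. The mitotic genes all lie left of 0 against glass, the 2-oxoglutarate genes mostly left with Slc23a2 to the right, and the imprinted genes spread widest.

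Genes whose own expression depends on DNA methylation gave a mixed picture. Of 16 germline genes that promoter methylation is known to silence in somatic mouse cells, 14 were too low to test, with at most 8 counts in any library. The remaining 2 were also low: Brdt averaged 4.51 CPM on 1 kPa, 4.73 on 20 kPa and 3.05 on glass, and Ddx4 averaged 0.779 CPM on 1 kPa, 0.461 on 20 kPa and 1.51 on glass. Brdt rose by 0.57 (adjusted p = 0.035) on 1 kPa and 0.65 (adjusted p = 0.016) on 20 kPa, and Ddx4 fell by 1.67 on 20 kPa (adjusted p = 0.0047), all against glass. Each of these calls was lost without single libraries: for Brdt glass replicate 1 (adjusted p = 0.22 on 1 kPa and 0.15 on 20 kPa), 1 kPa replicate 2 (0.19) or 20 kPa replicate 2 (0.25), and for Ddx4 glass replicate 2 (0.079) or 20 kPa replicate 1 (0.094).

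Imprinted genes, whose parental expression is set by methylated control regions, were called in both directions. Of 21 tested, 4 were higher and 11 lower on 1 kPa, and 7 higher and 11 lower on 20 kPa, than on glass, and 8 were higher and 1 lower on 20 kPa than on 1 kPa. Mest, expressed from the paternal copy, averaged 34.4 CPM on 1 kPa, 105 on 20 kPa and 198 on glass, and fell by 2.53 on 1 kPa (adjusted p = 4.8e-23) and 0.92 on 20 kPa (adjusted p = 2.2e-13) on the log2 scale. The long noncoding RNA H19, expressed from the maternal copy, averaged 77.8 CPM on 1 kPa, 196 on 20 kPa and 89.2 on glass, and rose on 20 kPa by 1.14 against glass (adjusted p = 5.6e-16) and by 1.33 against 1 kPa (adjusted p = 1.1e-16). Cdkn1c, a maternally expressed inhibitor of the cell cycle, averaged 17.7 CPM on 1 kPa, 43.9 on 20 kPa and 17.0 on glass, and rose on 20 kPa by 1.36 against glass (adjusted p = 1.1e-12) and by 1.31 against 1 kPa (adjusted p = 1.2e-11). Rian fell by 0.89 on 1 kPa (adjusted p = 2.1e-13) and by 0.78 on 20 kPa (adjusted p = 4.9e-12) against glass. The list medians were -0.26 on 1 kPa and -0.20 on 20 kPa against glass and 0.14 on 20 kPa against 1 kPa, and no allele was told apart in these counts.

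Tet1 and Tet2 had the widest ranges of group means in the set, 0.87 and 0.73 on the log2 scale, and the genes most like them across the 6 libraries were looked up. Likeness was measured as the root mean square difference of log2 CPM after centring each gene on its own mean. Closest to Tet2 were Rnase4 (0.0475), Ctso (0.0486) and Itm2c (0.0547), and 6.24% of all tested genes lay within 0.2. Closest to Tet1 were Ogfod3 (0.0775), Zfp69 (0.082) and St6galnac2 (0.0882), and 0.645% lay within 0.2. The shares are not comparable between Tet1 and Tet2, because Tet1 had 19 to 55 counts per library and Tet2 428 to 852.

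Markers of other cells that an ear culture can hold were not equal between the substrates. The summed chondrocyte markers stood at 866 and 843 CPM on 1 kPa, 1490 and 1440 on 20 kPa, and 589 and 554 on glass. Of the 9 tested, 6 were higher and 1 lower on 1 kPa, and 8 higher and 1 lower on 20 kPa, than on glass. The lower one was Sox9, at means of 164 CPM on 1 kPa, 251 on 20 kPa and 285 on glass. The 11 leukocyte and macrophage markers summed to 57 and 57.3 CPM on 1 kPa, 29 and 26.2 on 20 kPa, and 18 and 18.7 on glass. Most of the sum on 1 kPa was Cd14, at a mean of 42.5 CPM there, while Ptprc, which defines leukocytes, was at 0.0975 to 0.29 CPM in the 6 libraries, near the floor. Endothelial markers summed to 29.3 to 35.1 CPM on the gels and to 15.8 and 16.7 CPM on glass, and keratinocyte markers to 26.5 to 28.4 CPM on the gels and to 18.7 and 23.7 CPM on glass. The keratinocyte sum was mostly Trp63, and of the 5 keratinocyte markers tested 1 was higher and 3 were lower on each gel than on glass, with median log2 fold changes of -1.87 on 1 kPa and -1.48 on 20 kPa. Krt5, a basal keratin, averaged 0.133 CPM on 1 kPa, 0.413 on 20 kPa and 2.68 on glass. Schwann cell and melanocyte markers summed to 37.5 to 42.5 CPM on the gels and to 18.3 and 18.6 CPM on glass. Skeletal muscle markers summed to 11.3 to 25.8 CPM on the gels and to 2.96 and 3.89 CPM on glass. Krt1, Krt15, Cd3e, Myf5, Pax7 and Tyr had at most 3 counts in every library. The part of these cells in the changes of Tet2, Dnmt3a, Uhrf2 and the other genes of the set was not tested.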

How the data were processed

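RNA sequencing counts per gene were deposited by the authors as raw whole-number counts, with no normalisation. Per the submitters' processing notes, the tools were STAR 2.7.10b, featureCounts, cutadapt and Trim Galore, with build mm10. For their settings, the gene annotation and the use of strand, the sources used here give nothing. Groups were taken from the sample titles, which give the substrate and a replicate number.

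Of 57010 identifiers, 91.4% matched GENCODE M21 (GRCm38), which gave symbols, positions and exon lengths, and RefSeq starts of GRCm38.p6 gave the promoters. Genes were kept with filterByExpr by group (16093 genes) and libraries were scaled with TMM. All 6 libraries entered 1 quasi-likelihood fit with group as the only term (edgeR 4.0.16, R 4.3.3; 3 residual degrees of freedom; coefficient of biological variation 4.98%), with p-values adjusted by Benjamini-Hochberg over these 16093 genes and called below 0.05. SE is the size of the log2 fold change over the root of its F statistic. No exact permutation test was used, since 2 against 2 libraries reach 0.333 at best (two-sided). CPM and RPKM use TMM-scaled library sizes, and likeness between genes uses log2 CPM with a prior count of 2. The fit was tested on simulated data.

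The genes of the set and the companion lists were chosen with earlier results of these data known. Named companions are up to 4 genes per list with the smallest unadjusted p among the 3 substrates (some of them are not reported here), and a few others were named after their values were seen (Trdmt1, Xrcc1, Mcm2, Mcm3, Cxxc4 and the markers). Alternatives were total counts or DESeq2 size factors for scaling, DESeq2 1.42.0 and limma-voom (limma 3.58.1) as tests, no filter or a stricter one, only the 4 libraries compared, the replicate number as a term, and each library left out.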

Additional observations from a re-analysis of the deposited data

How the results depend on the processing

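The calls of Uhrf2, Dnmt3a and Tet2 on both gels against glass, of Uhrf1 and Tdg on 20 kPa against glass, and of Dnmt1 on 20 kPa against 1 kPa held in all 14 alternatives of each. The calls of the set that did not hold are given beside the values above. For companion genes not every loss is given there. DESeq2 also ended the calls of Brdt on 1 kPa (adjusted p = 0.13) and 20 kPa (0.085) against glass. Total counts in place of TMM ended that of Mcm2 between the gels (0.069). Between the gels, 3 genes of the set and 3035 of all genes were called, beside 2022 of all genes with DESeq2 and 1727 to 3758 when 1 library was left out, and 1 to 3 genes of the set when 1 library was left out. The 2 genes called lower on 20 kPa than on both others became 1 with total counts and 1 to 2 when 1 library was left out. Total counts also moved the split between the gels to 1945 higher and 1253 lower (60.8% higher), beside 1438 and 1597 (47.4% higher), without moving any median by over 0.1. Uncalled values between the gels changed sign when 1 library was left out: Dnmt3a ranged from -0.07 through -0.02 to 0.11, Dnmt3b from -0.01 to 0.31 and Tet2 from -0.08 through -0.01 to 0.14 on the log2 scale.

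With the replicate number as a block, 6, 7 and 3 genes of the set were called in the comparisons of 1 kPa with glass, 20 kPa with glass and 20 kPa with 1 kPa, and 7032, 6526 and 2862 of all genes. Deviations of same-numbered libraries correlated at -0.03, -0.03 and -0.02 across genes, so no deviation shared by number was seen. Whether a number marks a shared animal or day cannot be told from this. Depth limits Tet1, with 19 to 55 counts per library, and Dnmt3b, with 56 to 95, where a fold change the size of that of Dnmt3a was not called.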
